A study of Mus musculus with 15 samples.

Results

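Microglia of mice killed 7 days after a single dose of ATV:4D9 were compared with microglia of mice killed 1 day after the control antibody ATV:RSV, and the genes other than ribosomal protein genes that differed are described here. The members are all cells of 6 mice (3 per group), 39590 of 102043 cells in the series, which held 15 mice in 5 groups. Cells were assigned to mice by the deposited cell table and to groups by the labels, and 19289 cells came from ATV:4D9 day 7 mice and 20301 from ATV:RSV mice. ATV:4D9 is an antibody against mouse TREM2 on an Fc that binds the human transferrin receptor (the antibody transport vehicle, ATV), and ATV:RSV is a control antibody on the same vehicle. All animals were male hTfR KI mice on C57BL/6J, 3.5 months of age, whose transferrin receptor gene carries a human segment that the vehicle recognises, and each received 10 mg/kg. Brains were perfused, cortex and hippocampus were dissociated, and cells were enriched with CD45 beads, so the cells are those of a bead enrichment and not a census of the tissue. Each of 3 batches held 1 mouse of each group. No ATV:RSV mouse was sampled at day 7, so the antibody and the days since dosing cannot be told apart in this comparison.

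Microglia are the resident macrophages of the brain. TREM2 is a lipid-sensing receptor on their surface that signals through the adaptor TYROBP and the kinase SYK, and its activity is linked to a state known as disease-associated microglia (DAM), in which genes such as Apoe, Axl, Itgax, Clec7a and Cst7 rise while homeostatic genes such as P2ry12 fall. Microglia also respond to interferons, which induce antiviral genes and the MHC class I molecules that display peptides to T cells.

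The 6 libraries held 32341960 to 50730013 unique molecular identifiers (UMIs) each, with a median of 4694 to 6020 UMIs per cell. The labelled cell type held against its markers: at least 99.9% of the cells of every mouse carried UMIs of 2 or more of 10 microglial markers. Any 2 of the 6 libraries shared 7 to 21 cell barcodes. The summed CPM (UMIs scaled to the library total) of neuron markers was 6.67 to 7.48 at day 7 and 9.92 to 12.9 in ATV:RSV, with no overlap, and that of endothelial markers was 14.4 to 16.4 against 20.7 to 28.5. Markers of border-associated macrophages summed to 162 to 182 CPM at day 7 and 196 to 205 CPM in ATV:RSV, and cells that carried 2 or more markers of another cell type, not counting markers that microglia also express, were 1.07 to 1.33% against 1.79 to 2.86%, both without overlap. The border-associated macrophage sum includes Stab1 and the endothelial sum Pecam1, which microglia of these libraries also express. A gap in those sums therefore need not be a gap in other cells. The part of these differences in the results was not tested beyond the fits that left out cells with 2 or more markers of another type. T and NK cell markers summed to at most 0.631 CPM in any of the 6 mice. ATV:RSV replicate 1 stood apart from the other 2 controls, with interferon-response genes at 1093 CPM in sum against 777 and 850 CPM (TMM-scaled, unlike the marker sums). Neutrophil markers reached 157 CPM in ATV:4D9 day 7 replicate 3 and at most 10.1 CPM in the other 5 libraries. Erythrocyte markers summed to 388 and 213 CPM in ATV:RSV replicates 1 and 3, 131 CPM in ATV:4D9 day 7 replicate 2 and at most 9.67 CPM elsewhere. Ependymal and choroid plexus markers summed to 246 CPM in ATV:RSV replicate 3, 112 CPM in ATV:4D9 day 7 replicate 1 and at most 23.7 CPM elsewhere.

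UMIs were summed per mouse, scaled to CPM, and tested with limma-voom with the batch as a block. Of 14260 genes tested, 1014 passed the threshold of 0.05 on the p adjusted after Benjamini and Hochberg and are referred to as called, which is 7.11% of them. Of 162 ribosomal protein genes tested, counting those of the cytosolic and the mitochondrial ribosome, 86 were among them, and all 86 were higher at day 7. The remaining 928 genes divided into 591 that rose and 337 that fell, and 72 and 30 of these reached a 2-fold change. Changes were mostly small, with a median absolute log2 fold change of 0.36 over the 928 genes. Higher calls made up 4.75% of the genes tested and lower calls 2.36%. Counts of list members called, given below, are to be set beside these shares. The 2 groups did not overlap for 3030 genes (21.2%), with day 7 higher for 11.0% and lower for 10.2% of the genes tested. The split depends on the scaling: scaled by library size alone, 460 were called higher and 1879 lower, and the median change over all genes shifted on the log2 scale from -0.0050 to -0.10, so changes are given relative to the TMM scaling. Without the batch block 568 genes were called. Sums over cells cannot tell fewer expressing cells from less RNA per cell.

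**Figure D1:**
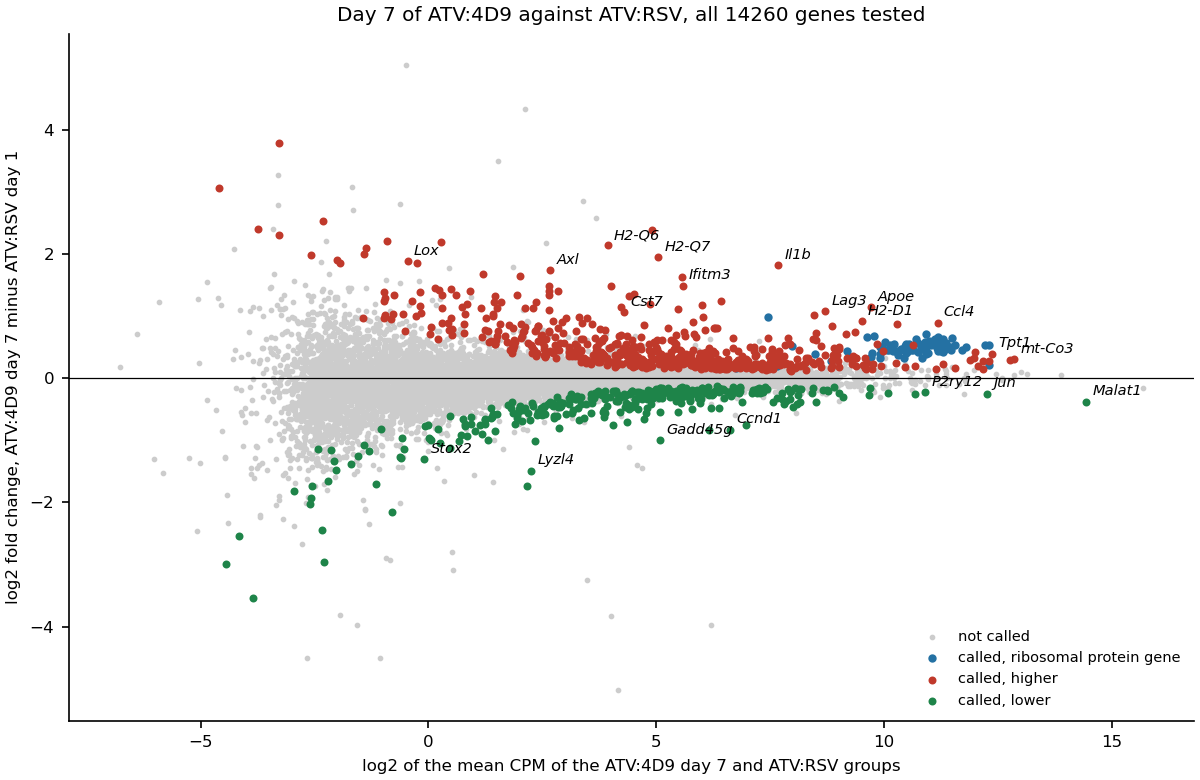
Each point is 1 of the 14260 genes tested, with the log2 of its mean CPM on the x axis and the log2 fold change of ATV:4D9 day 7 against ATV:RSV day 1 on the y axis. The 86 called ribosomal protein genes (blue), which include some of the mitochondrial ribosome, lie above 0. The other called genes are in red (higher, 591) and green (lower, 337) and spread over all levels.

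Apoe, which encodes the lipid carrier apolipoprotein E (chr7:19696109-19699188, mm10, protein coding), rose at day 7. Its level was 1167, 1106 and 1196 CPM in the day 7 mice and 503, 553 and 509 CPM in the ATV:RSV mice of batches 1, 2 and 3. All 3 day 7 mice lay far above every control, and the log2 fold change was 1.15 (SE 0.17, adjusted p = 0.000689 in limma-voom). At day 1 of ATV:4D9 the same gene stood at 571, 340.3 and 304 CPM, with replicate 1 above all 3 controls and the other 2 mice below them. The direct contrast of day 7 with day 1 gave a log2 difference of 1.57 (SE 0.17, adjusted p = 1.13e-06 in limma-voom). Apoe was at 712 ± 122 CPM (SD, n = 3) at day 14 and 739.7 ± 87.0 CPM at day 28, and no test of these days is given here.

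Lag3, an inhibitory receptor that binds MHC class II, was above the controls at day 7 and below them at day 1 (chr6:124904361-124911705, protein coding, chosen after its values were seen). Its CPM was 542, 549 and 610.3 at day 7 and 297, 235 and 274 in ATV:RSV, without overlap. Lag3 rose by a log2 fold change of 1.08 (SE 0.088, adjusted p = 2.67e-06 in limma-voom) and was at 217, 153 and 159 CPM at day 1. Kcnj9, a potassium channel subunit, and H2-Oa, a chain of the MHC class II modulator H2-O, also stood below the controls at day 1 and above them at day 7. Kcnj9 (chosen after its values were seen) had 9.48, 7.58 and 8.56 CPM at day 7, 4.35, 4.17 and 3.58 in ATV:RSV and only 0.550, 0.261 and 0.385 at day 1. H2-Oa had 73.4, 68.6 and 69.1 CPM at day 7 against 43.8, 41.9 and 43.7 in ATV:RSV (log2 fold change 0.71, SE 0.053, adjusted p = 1.48e-06 in limma-voom). Igfbp4, which binds insulin-like growth factors, rose by 1.19 (SE 0.085, adjusted p = 1.07e-06 in limma-voom) and was also chosen after its values were seen.

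Among cells thinned to 3385 UMIs, an Apoe UMI was found in 63.7% ± 1.07 (SD, n = 3) of cells at day 7 and in 45.1% ± 2.15 in ATV:RSV. Cells with an Apoe UMI held 5.83 of them on average at day 7 and 3.74 in ATV:RSV. For Lag3 the shares were 81.1% ± 1.34 and 58.5% ± 4.05. In both cases all day 7 mice lay above all controls (two-sided exact permutation test, p = 0.1 each, the smallest that 3 against 3 allows, and 0.1 after adjustment over 6 genes). The 6 genes were these and Il1b, H2-D1, Ccl4 and Ccnd1. None overlapped between groups in CPM, so the p was largely set by their choice. Without thinning the shares were 69.6% and 54.6% for Apoe and 87.4% and 72.1% for Lag3. As a reference for low shares, Mbp, a myelin gene of oligodendrocytes, was found in 5.09% ± 0.372 of thinned cells at day 7. In ATV:RSV its share was 5.36% ± 0.598. Without thinning the shares of Mbp were 8.64% and 9.49%, at median depths of 5203 ± 715 and 5317 ± 396 UMIs per cell. Mbp was elsewhere set aside as a marker that microglia of these libraries express, so its share need not be RNA from other cells. The erythrocyte gene Hbb-bs was found in 0.369% of thinned cells at day 7 and 0.710% in ATV:RSV. The choroid plexus gene Ttr was found in 1.15% and 3.05%, with 0 to 6.52% over the control mice. Shares near or below that of Mbp were not read, which leaves out Axl, Itgax, Clec7a, Cst7 and Lyzl4.

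**Figure D2:**
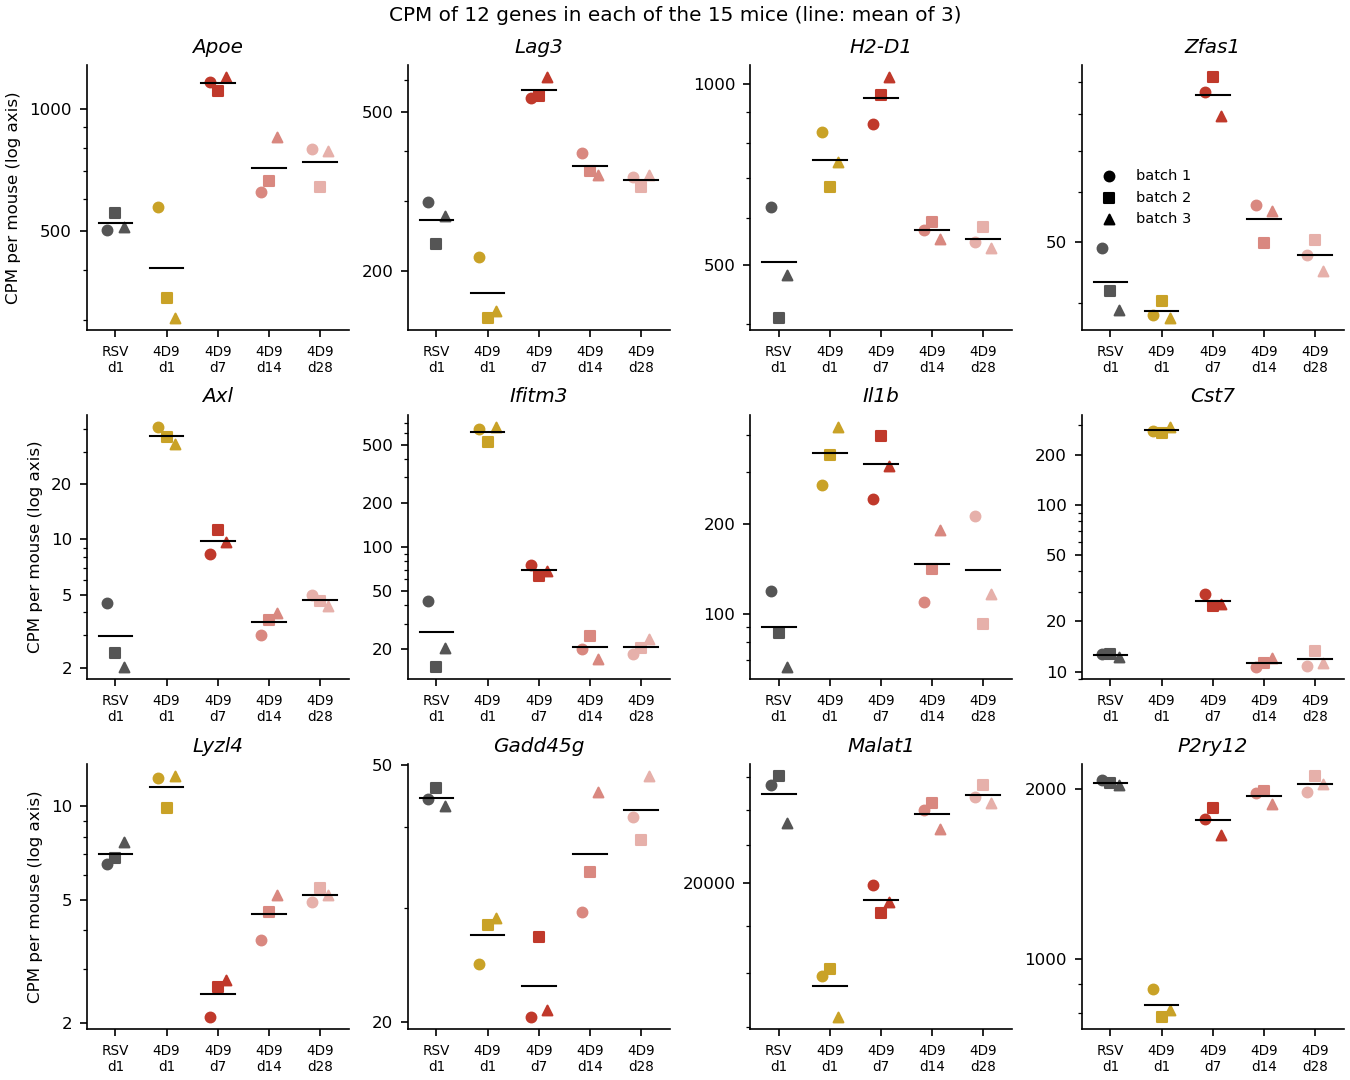
CPM of 12 genes in each of the 15 mice, on log axes, by group and batch, with a line at the mean of 3 mice. Apoe, Lag3, H2-D1 and Zfas1 have their highest group mean at day 7, Axl, Ifitm3 and Cst7 have theirs at day 1, and ATV:RSV replicate 1 (dark circle) lies above the other 2 controls for H2-D1, Axl and Ifitm3.

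Of 28 tested members of the DAM list, 17 were called higher and 0 lower, with a median log2 fold change of 0.37 beside -0.0050 over all genes. The 17 included the integrin subunit Itgax, the protease inhibitor Cst7, the beta-glucan receptor Clec7a, the receptor tyrosine kinase Axl, the tetraspanin Cd63, B2m, Fth1, Apoe, Csf1 and the cathepsins Ctsz, Ctsb and Ctsl. The list median was 0.37, 0.36 and 0.37 within batches 1, 2 and 3. Axl (chr7:25757273-25788705) had 8.35, 11.3 and 9.71 CPM at day 7 and 4.50, 2.39 and 2.00 CPM in ATV:RSV (log2 fold change 1.75, SE 0.20, adjusted p = 8.50e-05 in limma-voom), and leaving out ATV:RSV replicate 1 or 2 gave 2.12 or 1.61. Itgax had 8.46, 9.26 and 9.61 CPM against 3.25, 3.98 and 3.13 CPM. Its log2 fold change of 1.41 (SE 0.11, adjusted p = 1.48e-06 in limma-voom) was alike in the 3 batches, at 1.37, 1.21 and 1.61.

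Cst7 stood at 29.1, 24.8 and 25.6 CPM at day 7 and 12.8, 12.7 and 12.3 CPM in ATV:RSV, with no overlap and a log2 fold change of 1.07 (SE 0.083, adjusted p = 1.77e-06 in limma-voom). At day 1 it was 276, 271 and 294 CPM, and at days 14 and 28 it averaged 11.3 and 11.8 CPM, close to the controls. Clec7a rose by 1.15 (SE 0.13, adjusted p = 5.13e-05 in limma-voom) and Cd63 by 0.50 (SE 0.051, adjusted p = 2.07e-05 in limma-voom). Other members of the list did not pass: the lipase Lpl had a log2 fold change of 0.42 (SE 0.27, adjusted p = 0.395 in limma-voom) with overlapping groups. Spp1 (osteopontin) had 1.36, 2.02 and 1.35 CPM at day 7 and 0.675, 18.8 and 0.883 CPM in ATV:RSV, so 1 control library set its log2 difference of -0.81 (SE 1.01, adjusted p = 0.699 in limma-voom), which was 1.13 without that library.

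The receptor itself did not move detectably. Trem2 was at 2605, 2634 and 2606 CPM at day 7 and 2519.5, 2549.6 and 2801 CPM in ATV:RSV, a log2 difference of -0.0033 ± 0.043 (SE; 95% interval -0.10 to 0.090; limma-voom adjusted p = 0.978). Of 20 genes of TREM2 signalling 2 were called, both higher, which is 10% of the list beside 7.11% of all genes tested. They were the adaptor Tyrobp, at a log2 fold change of 0.17 (SE 0.042, adjusted p = 0.0253 in limma-voom), and Adam17, a protease that can release the TREM2 ectodomain, at 0.15 (SE 0.034, adjusted p = 0.0185 in limma-voom). Neither call held without the batch block, with limma-voom adjusted p of 0.0563 and 0.108, and the calls were lost in 7 and 13 of 22 alternatives. With the library size alone 0 of the 20 genes were called higher and 9 lower. Syk had a log2 difference of -0.033 (SE 0.055, adjusted p = 0.778 in limma-voom) and the growth factor receptor Csf1r one of -0.0073 (SE 0.029, adjusted p = 0.919 in limma-voom). Tfrc, the receptor that the vehicle binds, was called higher, from 4.43 ± 0.324 to 5.95 ± 0.649 CPM (SD, n = 3). Its log2 fold change was 0.40 (SE 0.10, adjusted p = 0.0333 in limma-voom), and this call was lost in 13 of 22 alternatives.

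Of 26 tested genes of MHC class I presentation 14 were called higher and 0 lower, with a median log2 fold change of 0.18. They included the light chain B2m, the classical heavy chains H2-D1 and H2-K1, the non-classical genes H2-Q4, H2-Q5, H2-Q6, H2-Q7, H2-T22, H2-T24 and H2-M3, the peptide transporter Tap1, the transcriptional activator Nlrc5 and the proteasome genes Psmb8 and Psme1. H2-D1 (chr17:35262730-35267499) was at 859, 961 and 1027 CPM at day 7 and 626, 409 and 483 CPM in ATV:RSV. The day 7 mice all lay above the controls, and the log2 fold change was 0.92 (SE 0.11, adjusted p = 0.000116 in limma-voom), or 1.09 and 0.79 with ATV:RSV replicate 1 or 2 left out. An H2-D1 UMI was found in 88.0% ± 1.71 of thinned cells at day 7 and in 74.1% ± 3.07 in ATV:RSV (91.9% and 83.8% without thinning).

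The highest changes among genes eligible for naming were those of H2-Q6 (chr17:35424850-35430055) and H2-Q7 (chr17:35439155-35443773), neighbouring and nearly identical genes between which reads may have been divided, so the value of each alone is uncertain. H2-Q7 had 38.9, 58.7 and 57.7 CPM at day 7 and 25.2, 6.80 and 10.7 CPM in ATV:RSV, and H2-Q6 had 18.9, 27.0 and 27.5 CPM against 10.9, 2.65 and 4.34 CPM. Groups did not overlap, but ATV:RSV replicate 1 was well above the other 2 controls. Within batches 1, 2 and 3 the log2 difference of H2-Q6 was 0.80, 3.33 and 2.65, around a fitted value of 2.14 (SE 0.31, adjusted p = 0.000638 in limma-voom). H2-Q7 had a fitted log2 fold change of 1.95 (SE 0.31, adjusted p = 0.00132 in limma-voom). Without ATV:RSV replicate 1 these values were 2.84 for H2-Q6 and 2.57 for H2-Q7, and with replicate 2 left out they were 1.72 and 1.56.

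Of 40 tested members of the interferon-response list 18 were called higher and 1 lower, with a median log2 fold change of 0.68. Ifitm3, which blocks virus entry, was at 75.6, 63.6 and 68.6 CPM at day 7 and 43.0, 15.1 and 20.6 CPM in ATV:RSV (chr7:141009586-141010770). Ifi27l2a was at 74.5, 67.2 and 68.1 CPM against 43.3, 12.9 and 18.2 CPM. In each case the 3 day 7 mice were alike and the controls were not, and ATV:RSV replicate 1 lay between the other controls and the day 7 mice. Log2 fold changes were 1.49 (SE 0.22, adjusted p = 0.000814 in limma-voom) for Ifitm3, 1.63 (SE 0.33, adjusted p = 0.00810 in limma-voom) for Ifi27l2a and 1.48 (SE 0.27, adjusted p = 0.00376 in limma-voom) for the DNA sensor gene Ifi204. With ATV:RSV replicate 1 left out, the same 3 log2 fold changes came to 1.95, 2.13 and 2.05. When ATV:RSV replicate 2 was left out instead, they came to 1.22, 1.27 and 1.07, and Ifi27l2a was then not called (limma-voom adjusted p = 0.0567).

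The same control mouse stood apart over the whole list. Summed over its 40 genes, the interferon list stood at 1333, 1245 and 1273 CPM at day 7 and at 1093, 777 and 850 CPM in ATV:RSV replicates 1, 2 and 3, without overlap. The list median within batches 1, 2 and 3 was 0.25, 1.10 and 0.80. Without ATV:RSV replicate 1, 29 members were called higher and the median was 1.08, and without ATV:RSV replicate 2, 10 were called and the median was 0.35. Isg15, a ubiquitin-like interferon product, had 32.1, 24.5 and 27.7 CPM against 27.0, 12.5 and 14.7 CPM, overlapped with that control and did not pass (0.68, SE 0.20, adjusted p = 0.0649 in limma-voom). Bst2 (tetherin) and the galectin ligand Lgals3bp rose by 0.35 (SE 0.058, adjusted p = 0.00199 in limma-voom) and 0.82 (SE 0.10, adjusted p = 0.000108 in limma-voom). Gbp7, an interferon-inducible GTPase (chosen after its values were seen), was the member called lower, from 64.3 ± 3.35 to 45.9 ± 3.06 CPM (SD, n = 3; log2 fold change -0.49, SE 0.12, adjusted p = 0.0210 in limma-voom), a call lost in 3 of the 6 fits that left out 1 mouse (limma-voom adjusted p = 0.0786 without ATV:4D9 day 7 replicate 2, 0.122 without replicate 3 of that group and 0.109 without ATV:RSV replicate 2).

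Promoters of these genes were searched because interferon-induced genes are known to carry an interferon-stimulated response element. The core of this element, GAAA, any 2 bases and GAAA again, was sought on both strands in the 250 bases before each RefSeq gene start (GRCm38.p6, the assembly of mm10). It was found in 936 of 27025 genes with a promoter (3.46%) and in 357 of 10636 genes tested (3.36%). Of the 40 tested interferon-list members 31 had a promoter, and 18 of them (58.1%) held it. Of the 18 called higher 11 had a promoter, and 5 (45.5%) held it. Among MHC class I members called higher it was 2 of 11 (18.2%). The windows are shown for the 7 called genes, 5′ to 3′ on the gene's strand with the match in capitals, to let its form and flanks be compared.
Oas1a (chr5:120907526-120907555, - strand): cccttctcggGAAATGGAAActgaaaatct
Bst2 (chr8:71537583-71537612, - strand): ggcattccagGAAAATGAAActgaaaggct
Cxcl10 (chr5:92349083-92349112, - strand): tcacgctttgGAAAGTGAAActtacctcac
Phf11b (chr14:59341361-59341390, - strand): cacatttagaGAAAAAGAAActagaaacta
Slfn5 (chr11:82951937-82951966, + strand): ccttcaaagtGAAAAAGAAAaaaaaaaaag
B2m (chr2:122147538-122147567, + strand): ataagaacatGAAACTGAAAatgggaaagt
H2-T22 (chr17:36042914-36042943, - strand): attggcttagTTTCACTTTCgaatccccaa

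In these windows the match began 20 bases before the annotated start in Oas1a, 50 in Phf11b, 130 in Bst2, 139 in B2m, 155 in Slfn5, 191 in H2-T22 and 213 in Cxcl10. A second, overlapping match lay in the Oas1a and Bst2 windows. H2-T22 held it in the reverse form (TTTC, 2 bases, TTTC). A match of letters is a description and not a binding site. Gbp7, the member called lower, held the core too.

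**Figure D3:**
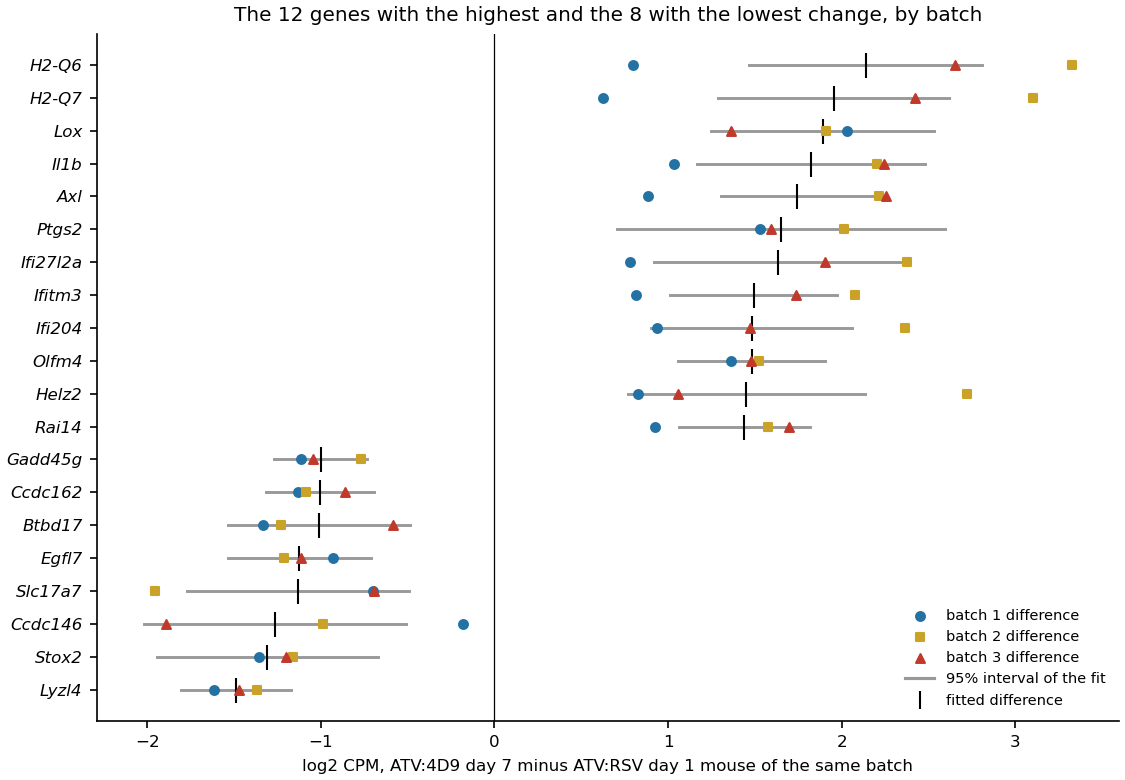
Log2 CPM difference between the day 7 and the ATV:RSV mouse of each batch (symbols), with the fitted difference and its 95% interval, for the 12 genes with the highest and the 8 with the lowest change among genes eligible for naming. All 60 within-batch differences have the sign of the fit, which follows from naming only genes whose groups did not overlap. Batch 1 gives the smallest difference of H2-Q6, H2-Q7, Il1b, Axl, Ifi27l2a, Ifitm3 and Ifi204, whereas Olfm4, Lyzl4 and Stox2 differ little between batches.

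Of 22 tested chemokine and cytokine genes 9 were called higher and 0 lower. The list median was 0.49, which became 0.23 without cluster 2 cells, and which ranged from 0.33 (ATV:RSV replicate 3 left out) to 0.72 (ATV:RSV replicate 1 left out) with 1 mouse fewer. The called members were Il1b, Il1a, Ccl3, Ccl4, Ccl5, Ccl12, Cxcl10, Cxcl16 and Csf1. Il1b (chr2:129364570-129371139), which encodes the inflammatory cytokine interleukin-1 beta, had 244, 396 and 313 CPM at day 7 and 119, 85.9 and 66.0 CPM in ATV:RSV. The groups were well apart, although day 7 mice differed among themselves, and the log2 fold change was 1.82 (SE 0.31, adjusted p = 0.00212 in limma-voom). Leaving out ATV:RSV replicate 1, 2 or 3 gave 2.10, 1.83 or 1.55. Neutrophil markers stood at 157 CPM in ATV:4D9 day 7 replicate 3 and at most 10.1 CPM in the other 5 libraries, and their part in the Il1b difference was not tested. Thinned cells with an Il1b UMI were 24.7% ± 5.25 at day 7 and 9.20% ± 1.96 in ATV:RSV (27.2% and 11.3% without thinning).

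Ccl4, a chemokine that attracts monocytes and T cells, had 2286, 3763 and 2999 CPM at day 7 and 1634, 1649 and 1488 CPM in ATV:RSV. The rise was 0.89 (SE 0.18, adjusted p = 0.00743 in limma-voom) on the log2 scale, and the call was lost in DESeq2, at an adjusted p of 0.0689. A Ccl4 UMI was found in 69.7% ± 7.23 of thinned cells at day 7 and in 50.2% ± 4.12 in ATV:RSV (71.1% and 54.5% without thinning), with no overlap. Ccl3 rose by 0.87 (SE 0.18, adjusted p = 0.00857 in limma-voom), and its call was lost without ATV:RSV replicate 3, at a limma-voom adjusted p of 0.0516. These 2 genes were chosen after their values were seen. Without ATV:RSV replicate 3, 5 of the 22 genes were called higher. Cxcl16, a membrane-bound chemokine, was more even between mice, at 97.5, 96.6 and 103 CPM against 61.1, 55.0 and 54.2 CPM and a log2 fold change of 0.81 (SE 0.064, adjusted p = 1.91e-06 in limma-voom). Csf1, the ligand of Csf1r, rose by 0.67 (SE 0.10, adjusted p = 0.000807 in limma-voom). The cyclooxygenase gene Ptgs2, outside the list, had 6.17, 7.93 and 4.62 CPM against 2.11, 1.93 and 1.503 CPM, and its call was lost in 8 of 22 alternatives, among them the one without the batch block (limma-voom adjusted p = 0.0515).

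Other genes with large rises were Lox, which crosslinks collagen, Olfm4, a secreted olfactomedin, Rai14 and the adhesion receptor Vcam1. Lox had 1.30, 1.03 and 1.11 CPM at day 7 against 0.286, 0.241 and 0.406 CPM, a log2 fold change of 1.89 (SE 0.30, adjusted p = 0.00127 in limma-voom), on 10 or more UMIs per mouse. Olfm4 had 8.07, 9.29 and 10.1 CPM against 3.11, 3.21 and 3.60 CPM and rose by 1.48 (SE 0.20, adjusted p = 0.000261 in limma-voom). Helz2 had a log2 fold change of 1.45 (SE 0.32, adjusted p = 0.0128 in limma-voom), and its call was lost in 3 of the 6 fits that left out 1 mouse. Rai14 rose by 1.44 (SE 0.18, adjusted p = 0.000122 in limma-voom) and Vcam1, chosen after its values were seen, by 1.33 (SE 0.16, adjusted p = 9.54e-05 in limma-voom). Of 18 complement and Fc receptor genes 3 were called higher, namely the Fc receptor Fcgr4 (0.79, SE 0.071, adjusted p = 6.83e-06 in limma-voom), the complement gene C4b (1.404, SE 0.28, adjusted p = 0.00741 in limma-voom) and C3. The neonatal Fc receptor gene Fcgrt was called lower, with overlapping groups. Without ATV:4D9 day 7 replicate 1, and without the batch block, 0 of these genes were called lower. In the main fit 22.2% of this list was called, beside 7.11% of all genes tested.

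Of 36 tested lysosomal genes 15 were called higher and 0 lower, with a median log2 fold change of 0.15. Cd63, given above, was one of the called members, as were the carboxypeptidase Scpep1 at 0.42 (SE 0.043, adjusted p = 2.09e-05 in limma-voom) and the alpha-mannosidase Man2b1 at 0.32 (SE 0.043, adjusted p = 0.000328 in limma-voom). Man2b1 was at 637, 629.6 and 662 CPM at day 7, 499, 499 and 549 CPM in ATV:RSV and 381, 361 and 363 CPM at day 1. Cathepsin S (Ctss), an abundant microglial protease, had 4911, 4620.0 and 5076 CPM against 4379, 4194 and 4568 CPM (0.15, SE 0.034, adjusted p = 0.0132 in limma-voom), a call lost in 5 of 22 alternatives, among them the library size alone, the fit without the batch block and 3 that left out 1 mouse. With the library size alone 7 lysosomal genes were called higher and 2 lower, and without ATV:RSV replicate 2 there were 9 higher calls. Among 16 subunits of the vacuolar proton pump that acidifies lysosomes 3 were called, all higher, which is 18.75% beside 7.11% of all genes tested. Of the 3, Atp6v0c, at 0.21 (SE 0.032, adjusted p = 0.00112 in limma-voom), kept its call in all 22 alternatives. The calls of Atp6v1f and Atp6v0e were lost in 14 and 18 of 22, including all 6 that left out 1 mouse. Lipid transport and storage gave 4 calls of 24, all higher, which is 16.7% beside 7.11% of all genes tested. Among the 4 were the lysosomal cholesterol-binding protein Npc2 (0.25, SE 0.034, adjusted p = 0.000388 in limma-voom) and the fatty acid binding protein Fabp5 (0.76, SE 0.14, adjusted p = 0.00377 in limma-voom). The others were Apoe and Soat1. Apoe and Fabp5 are also counted in the DAM list, and Npc2 among the lysosomal genes. In iron handling, the ferritin heavy chain Fth1 rose by 0.32 (SE 0.042, adjusted p = 0.000231 in limma-voom) and the iron exporter Slc40a1 was called lower, at -0.18 (SE 0.051, adjusted p = 0.0476 in limma-voom). The Slc40a1 call was lost in 12 of 22 alternatives, including all 6 that left out 1 mouse.

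**Figure D4:**
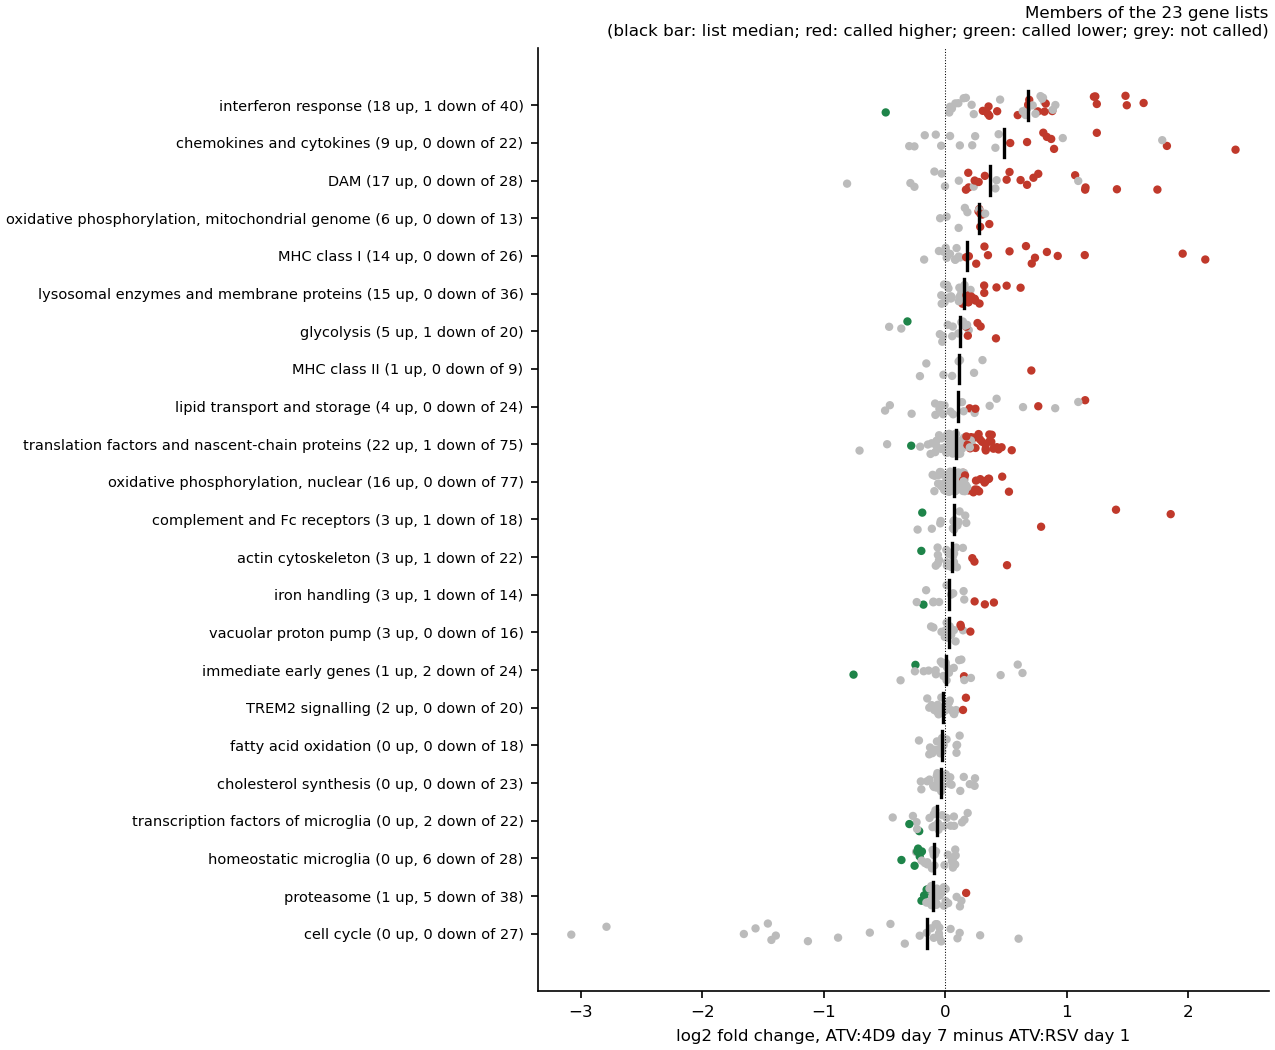
Each point is a member of 1 of 23 gene lists, placed by its log2 fold change at day 7 against ATV:RSV, with list medians as black bars and called genes in red (higher) and green (lower). Interferon-response, chemokine and DAM genes have medians of 0.68, 0.49 and 0.37, whereas proteasome and homeostatic genes have medians of -0.10 and -0.097.

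Of 75 translation genes other than ribosomal proteins 22 were called higher and 1, the elongation factor kinase Eef2k, lower. The elongation factor genes Eef1a1 and Eef1b2, the initiation factor gene Eif3f and Tpt1 were the 4 named members. Eef1a1 had 4622, 4612 and 4709.7 CPM at day 7 and 3393, 3500.1 and 3501 CPM in ATV:RSV (log2 fold change 0.42, SE 0.032, adjusted p = 1.34e-06 in limma-voom) with very little spread between mice. Tpt1 had 5916, 6025 and 5934 CPM against 4333, 4674 and 4588 CPM and rose by 0.40 (SE 0.038, adjusted p = 1.24e-05 in limma-voom). Eef1b2 rose by 0.55 (SE 0.038, adjusted p = 8.36e-07 in limma-voom) and Eif3f by 0.46 (SE 0.039, adjusted p = 3.69e-06 in limma-voom). The list median was 0.090 and became -0.0046 with the library size alone, where 17 members were called higher and 5 lower. Genes of this kind have processed pseudogenes with which reads may be shared.

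The non-coding RNAs Zfas1 and Gas5, hosts of small nucleolar RNAs, rose as well (both chosen after their values were seen). Zfas1 (chr2:167062934-167065862) had 86.7, 91.7 and 79.4 CPM at day 7 and 49.0, 41.8 and 38.9 CPM in ATV:RSV (log2 fold change 0.99, SE 0.071, adjusted p = 1.07e-06 in limma-voom). Gas5 had 421, 421 and 414 CPM against 296, 255 and 260.1 CPM and rose by 0.63 (SE 0.049, adjusted p = 1.75e-06 in limma-voom). Their day 1 levels were 38.3, 40.3 and 37.8 CPM for Zfas1 and 233, 237 and 225 CPM for Gas5, where the controls were as high or higher but for Zfas1 in ATV:RSV replicate 3. Zfas1 lies beside Znfx1 on the other strand, and whether counting used the strand is not given in the sources used here.

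Of 77 nuclear genes of the respiratory chain 16 were called higher and 0 lower, led by Uqcrh (0.52, SE 0.041, adjusted p = 1.91e-06 in limma-voom), Cox7a2l (0.47, SE 0.040, adjusted p = 4.26e-06 in limma-voom) and Cox4i1 (0.33, SE 0.038, adjusted p = 6.45e-05 in limma-voom), which are subunits or assembly partners of complexes III and IV. Without the batch block 8 of the 77 were called, and with the library size alone 10 were called higher and 6 lower and the list median went from 0.075 to -0.021. Cox7a2l was at 601, 608 and 588 CPM at day 7, 409.7, 456 and 435 CPM in ATV:RSV and 236, 251 and 248 CPM at day 1. Of 13 genes of the mitochondrial genome 6 were called higher, with mt-Co1 at 0.27 (SE 0.043, adjusted p = 0.00137 in limma-voom) and mt-Co3 at 0.30 (SE 0.071, adjusted p = 0.0185 in limma-voom). Mitochondrial transcripts took a median of 3.80% ± 0.285 (SD, n = 3) of the UMIs of a cell at day 7 and 3.25% ± 0.134 in ATV:RSV, without overlap (two-sided exact permutation test, p = 0.1, adjusted over 10 measures 0.25). The mt-Co3 call was lost without the batch block (limma-voom adjusted p = 0.0533), where 3 of the 13 genes were called, and without ATV:RSV replicate 2 the call of 1 gene was left. In glycolysis 5 of 20 genes were called higher, against 2 to 4 in fits that left out 1 mouse and 2 in cluster 0 cells. Over all genes tested 4.75% were called higher. The 5 included the isomerase Tpi1 (0.42, SE 0.059, adjusted p = 0.000503 in limma-voom) and the lactate exporter Slc16a3 (0.29, SE 0.059, adjusted p = 0.00811 in limma-voom). The hexokinase Hk1 was called lower (-0.31, SE 0.065, adjusted p = 0.00965 in limma-voom). This call was lost without ATV:4D9 day 7 replicate 3 (limma-voom adjusted p = 0.0873) and in cluster 0 cells. Cholesterol synthesis (23 genes) and fatty acid oxidation (18 genes) gave 0 calls in limma-voom, edgeR and DESeq2. At an unadjusted limma-voom p under 0.05, 1 and 1 genes were higher and 0 and 3 lower. With 7.11% of all genes tested called by limma-voom, lists of this size would hold few calls. The 0 calls are therefore not read as a result about these 2 lists. With the library size alone 4 of the 18 fatty acid oxidation genes were called lower.

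Of 28 homeostatic genes 6 were called lower and 0 higher, and 22 were not called, with a median log2 fold change of -0.097. The purinergic receptor P2ry12 was at 1766, 1851 and 1658 CPM at day 7 and 2074, 2050.0 and 2032 CPM in ATV:RSV. Day 7 mice were below every control and well above the 883, 788 and 812 CPM of day 1, and the log2 fold change was -0.22 (SE 0.045, adjusted p = 0.00780 in limma-voom). This call was lost without ATV:4D9 day 7 replicate 3, where 3 of the 28 genes were called, at a limma-voom adjusted p of 0.0540. The hexose transporter Slc2a5 (-0.36, SE 0.059, adjusted p = 0.00179 in limma-voom), the lectin Siglech (-0.23, SE 0.043, adjusted p = 0.00413 in limma-voom) and the Fc receptor-like Fcrls (-0.25, SE 0.055, adjusted p = 0.0123 in limma-voom) fell, and Golm1 and Crybb1 were the other 2 called members. The Fcrls call was lost without ATV:4D9 day 7 replicate 2 and without ATV:RSV replicate 1, at limma-voom adjusted p of 0.0637 and 0.0696. Tmem119 was not called (-0.11, SE 0.060, adjusted p = 0.311 in limma-voom). Of 22 transcription factors of microglia, Maf (-0.30, SE 0.059, adjusted p = 0.00737 in limma-voom) and Rxra (-0.22, SE 0.050, adjusted p = 0.0177 in limma-voom) were called lower. Neither was without the batch block, which was the 1 alternative that lost the Maf call, whereas the Rxra call was lost in 8 of 22, including 5 of the 6 that left out 1 mouse. With the library size alone 20 of the 28 homeostatic genes and 10 of the 22 transcription factors were called lower. In the main fit the transcription factors called were 9.09% of that list, beside 7.11% of all genes tested.

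The lowest log2 fold change among genes eligible for naming was that of Lyzl4, a lysozyme-like gene (chr9:121577843-121642096). It had 2.09, 2.61 and 2.75 CPM at day 7, 6.502, 6.80 and 7.71 CPM in ATV:RSV and 12.3, 9.92 and 12.5 CPM at day 1. Lyzl4 thus stood above the controls at day 1 and below them at day 7, at a log2 fold change of -1.49 (SE 0.15, adjusted p = 1.72e-05 in limma-voom). It was still lower at day 14, at a log2 difference of -0.65 (limma-voom adjusted p = 0.0207). Cyclin D1 (Ccnd1), chosen after its values were seen, took the same course, with 69.8, 83.9 and 61.2 CPM at day 7, 124, 132 and 119 CPM in ATV:RSV and 270.0, 283 and 318 CPM at day 1. A Ccnd1 UMI was found in 19.5% ± 3.02 of thinned cells at day 7 and in 32.7% ± 1.53 in ATV:RSV (29.1% and 46.0% without thinning), again without overlap.

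Gadd45g, a stress-responsive growth arrest gene, had 20.4, 27.0 and 20.9 CPM at day 7 against 44.2, 46.0 and 43.1 CPM, a log2 fold change of -0.9995 (SE 0.12, adjusted p = 0.000152 in limma-voom). Malat1, a nuclear long non-coding RNA and the called lower gene with most CPM, had 19883, 18556 and 19080.0 CPM against 25527, 26068 and 23206 CPM. Its log2 fold change was -0.38 (SE 0.040, adjusted p = 2.94e-05 in limma-voom). The immediate early transcription factor genes Jun (-0.25, SE 0.048, adjusted p = 0.00657 in limma-voom) and Klf4 (-0.76, SE 0.18, adjusted p = 0.0188 in limma-voom) were lower and the mRNA decay factor gene Zfp36 was higher (0.15, SE 0.040, adjusted p = 0.0316 in limma-voom), out of 24 genes of that class, which dissociation can induce. The Jun call was lost after cells were thinned to equal UMIs (limma-voom adjusted p = 0.0797) and in cluster 1 cells (0.341), the Klf4 call without the batch block (0.0983) and in 4 of the 6 fits that left out 1 mouse, and the Zfp36 call in 8 of 22 alternatives. In cluster 1 cells 6 of the 24 genes were called higher and 2 lower. In all cells the calls were 12.5% of this class, beside 7.11% of all genes tested.

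Ccdc162 and Egfl7, an endothelial gene, fell, with log2 fold changes of -1.005 (SE 0.14, adjusted p = 0.000569 in limma-voom) and -1.12 (SE 0.19, adjusted p = 0.00250 in limma-voom). Slc17a7, a glutamate transporter of neurons, had 0.538, 0.311 and 0.396 CPM against 0.900, 1.33 and 0.668 CPM and a log2 fold change of -1.13 (SE 0.30, adjusted p = 0.0345 in limma-voom). Neuron markers (6.67 to 7.48 against 9.92 to 12.9 CPM in sum) and endothelial markers (14.4 to 16.4 against 20.7 to 28.5) were lower at day 7 too. The endothelial sum includes Pecam1, which microglia of these libraries also express. The Slc17a7 call was lost in 12 of 22 alternatives, over which its log2 fold change was -1.33 to -0.83. Without cells that carried 2 or more markers of another cell type the limma-voom adjusted p was 0.0546 for Slc17a7 and 0.00734 for Egfl7, and the part of neuron markers in the Slc17a7 difference was otherwise not tested. Stox2, Btbd17 and Ccdc146, at 0.277 to 2.24 CPM in the 6 mice, were also among the 8 lowest, and their calls were lost in 3 of 22, 7 of 22 and 17 of 21 alternatives, in that order.

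Of 38 proteasome genes tested 5 were called lower, namely Psmd1 (-0.20, SE 0.040, adjusted p = 0.00864 in limma-voom), Psmc2 (-0.18, SE 0.037, adjusted p = 0.00971 in limma-voom), Psma3, Psmc5 and Psmd4, and the immunoproteasome subunit Psmb8 was called higher (0.17, SE 0.038, adjusted p = 0.0139 in limma-voom). Between 1 and 3 members were called lower in fits that lacked 1 of the 6 mice, and 28 with the library size alone. In the main fit the calls were 15.8% of the proteasome list, beside 7.11% of all genes tested. In the actin cytoskeleton list Tmsb10 (0.51, SE 0.073, adjusted p = 0.000579 in limma-voom), Lcp1 and Tagln2 were called higher and Cap1 lower, of 22, with the Lcp1 call lost in 5 and the Cap1 call in 9 of 22 alternatives. The calls were 18.2% of the actin list, beside 7.11% of all genes tested. Of 27 cell cycle genes 0 were called by limma-voom, with 1 higher and 7 lower at an unadjusted p under 0.05. With 7.11% of all genes tested called, few calls would be due in this list, and the 0 is not read as a result. By edgeR 1 was called higher and 2 lower, by DESeq2 1 and 4, and in a limma-voom fit of the 6 mice alone 0 and 8. The proliferation marker Mki67 had 0.283, 0.0311 and 0.674 CPM at day 7 and 3.84, 1.13 and 2.77 CPM in ATV:RSV, without overlap, and did not pass (-3.08, SE 0.97, adjusted p = 0.0772 in limma-voom). Of 9 MHC class II genes only H2-Oa was called, which is 11.1% of the list beside 7.11% of all genes tested. In cluster 1 cells 2 were called higher. Cd74, the invariant chain, had overlapping groups (0.24, SE 0.14, adjusted p = 0.364 in limma-voom). Over the 22 alternatives its log2 fold change was 0.085 to 0.56, and it was called in at least 1 of them.

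How day 7 stood against day 1 of the same antibody was asked for the 88 genes named by rule. In the direct contrast 77 of them differed, where 69.7% of all genes tested did (limma-voom). Of the genes above ATV:RSV at day 7, some were higher than at day 1, such as Apoe, H2-Oa (1.36, SE 0.054, adjusted p = 3.00e-11 in limma-voom), Fabp5 (0.76, SE 0.13, adjusted p = 0.000131 in limma-voom), Tpt1 and H2-D1 (0.34, SE 0.11, adjusted p = 0.0135 in limma-voom). Others had come down from day 1, such as Cst7 (-3.41, SE 0.070, adjusted p = 1.11e-13 in limma-voom), Ifitm3 (-3.13, SE 0.20, adjusted p = 3.98e-09 in limma-voom), Rai14 (-2.77, SE 0.12, adjusted p = 6.62e-11 in limma-voom) and Axl (-1.92, SE 0.14, adjusted p = 1.71e-08 in limma-voom). Il1b (-0.13, SE 0.30, adjusted p = 0.723 in limma-voom), H2-Q7 (0.29, SE 0.26, adjusted p = 0.337 in limma-voom) and Lox (-0.37, SE 0.22, adjusted p = 0.144 in limma-voom) did not differ detectably between the 2 days.

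**Figure D5:**
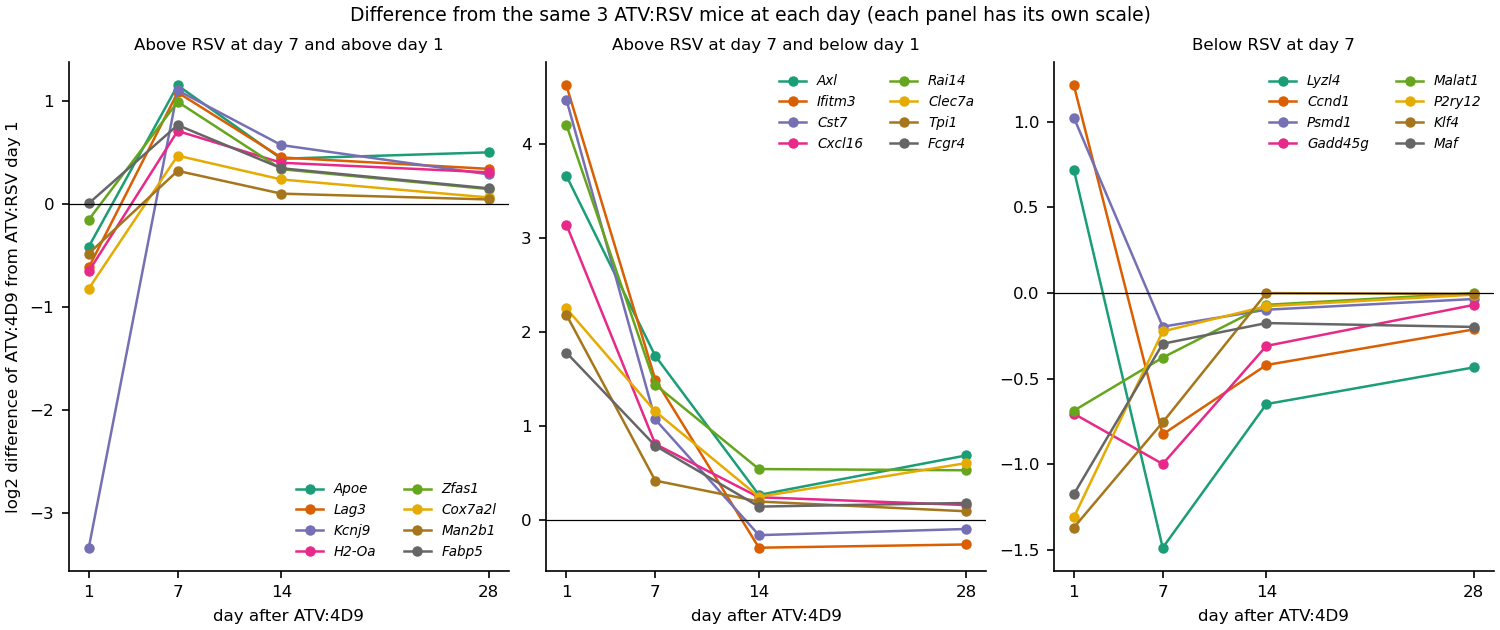
Log2 difference of ATV:4D9 from the same 3 ATV:RSV mice at days 1, 7, 14 and 28 for 24 genes, each panel on its own scale. Genes in the left panel pass from near or below 0 at day 1 to their highest value at day 7, those in the middle panel are highest at day 1, and in the right panel Lyzl4, Ccnd1 and Psmd1 pass from above to below 0.

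Later values of the same genes, against the same controls, are given side by side and without tests. At day 14 the log2 difference was 0.44 for Apoe, 0.45 for Lag3, 0.34 for Zfas1 and 0.66 for Igfbp4, and at day 28 it was 0.50, 0.34, 0.14 and 0.40. Ifitm3 and Cst7 were at -0.30 and -0.16 at day 14 and at -0.26 and -0.10 at day 28. The median of the DAM list was 0.84 at day 1 and 0.37 at day 7, that of the interferon list 3.11 and 0.68, and that of the lysosomal list 0.052 and 0.15.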

How the data were processed

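Single-cell RNA-seq libraries of CD45-enriched cells from 15 mice were made with a 3′ UMI kit. The authors mapped reads to mm10 with Cell Ranger (4.0.0 in the submitters' notes, other versions in the study's methods) and used Seurat for filters and clusters. Values of the deposited matrix are raw UMI counts, and the accompanying deposited table gives each cell's UMI count, mitochondrial percent, cluster, batch and mouse. The recomputed UMI counts equalled the table in 102043 of 102043 cells. Whether doublets were removed is not given in the sources used here. No caller was run, and cells with most UMIs or markers of another type were left out as alternatives.

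Counts were summed per mouse, filtered with filterByExpr (minimum count 10, minimum total 15), scaled by TMM (edgeR 4.0.16) and fitted by limma-voom (version 3.58.1 in R 4.3.3) over all 15 mice as group means plus batch, with 8 residual degrees of freedom. Comparisons of other days share the ATV:RSV mice. Alternatives included edgeR quasi-likelihood and DESeq2 (1.42.0). CPM uses the TMM-scaled library size, except for the summed markers of cell types, which use the library total. Whether the marker sums keep their gaps between groups under TMM scaling was not tested. Intervals are 95%. Shares of cells were computed after thinning cells to 3385 UMIs (the 10th percentile, 10204 cells of the series left out) and tested with exact permutation tests. Mice are separate animals.

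The labels state that each batch held all 5 conditions, so the batch number pairs mice. Deviations of same-batch mice correlated at a mean r of 0.054 (30 pairs, -0.22 to 0.26) and those of other pairs at -0.027 (60 pairs), across genes. Replicates differed by more than sampling noise (chi-square per degree of freedom 9.90 to 18.5).

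The members and gene lists were chosen with earlier results of these data known. Some genes belong to more than 1 list, so counts of different lists are not separate evidence. Genes named had to be called, not ribosomal or predicted, to hold 10 or more UMIs in every one of the 6 mice and not to overlap between groups: the 12 highest and 8 lowest changes, the 6 higher and 4 lower with most CPM, and the 3 lowest p per list, plus 17 always named. Others are marked as chosen after their values were seen. Positions are 1-based (mm10, GENCODE M21), and promoters are from RefSeq (GRCm38.p6).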

Additional observations from a re-analysis of the deposited data

Results flagged for a closer look

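For 11 of the genes named by rule, the effects at day 7 and at day 1 of ATV:4D9 were each called against the same ATV:RSV mice with opposite signs, and the contrast of day 7 with day 1 was called as well (limma-voom). The log2 difference of day 7 from day 1 was 1.57 for Apoe, 1.36 for H2-Oa, 1.29 for Cox7a2l, 0.80 for Man2b1, 0.77 for Ctss, 0.57 for Tpt1 and 0.52 for Zfp36, which lay below the controls at day 1 and above them at day 7. It was -2.21 for Lyzl4, -1.22 for Psmd1, -1.0009 for Psmc2 and -0.90 for Cap1, which lay above the controls at day 1 and below them at day 7. For Apoe, ATV:4D9 day 1 replicate 1 was at 571 CPM, above all 3 controls, while the other 2 day 1 mice were below them, so the sign at day 1 rests on replicates 2 and 3. The adjusted p of the Apoe difference at day 1 was 0.0407. Groups held 3 mice, so no mouse was tested as an outlier.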

How the results depend on the processing

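Among values of genes named by rule under alternatives that kept all 6 mice, 1275 kept their direction and side of the threshold, 97 lost and 18 gained a call, and 8 changed sign. With 1 mouse left out these numbers were 412, 112, 1 and 3. In edgeR, DESeq2 and RLE scaling 984, 1083 and 1003 genes were called, of which 947, 914 and 975 were shared with the 1014. With no filter on low counts there were 753.

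Without the batch block (the pairing of mice) 568 genes were called, 345 of them higher and 142 lower once ribosomal protein genes were set aside. The 18 named genes that lost their call under it included Tyrobp, Adam17, Tfrc, Maf, Rxra, Ctss and Psmb8. With the library size alone 2339 were called, 379 higher and 1868 lower apart from ribosomal protein genes. With 1 mouse left out the total was 528 to 738, with 316 to 438 higher and 117 to 234 lower. The total was 528 without ATV:4D9 day 7 replicate 3, 535 without ATV:RSV replicate 2, 644 without ATV:RSV replicate 3 and 665 without ATV:4D9 day 7 replicate 2, with fewer samples in the fit. The count of named genes that differed between days 7 and 1 went from 77 to 35 in cluster 0 cells and to 49 without cluster 2 cells, and the cause was not tested. Cluster 2 held 87.3 to 93.5% of the cells of a day 1 mouse of ATV:4D9 and 2.12 to 3.23% of those of a day 7 mouse, and cluster 0 held 211 to 383 cells of a day 1 mouse. The call was also lost in 7 of 21 alternatives for mt-Co3, in 6 of 22 for Psmb8, in 3 for Psmd1 and in 1 each for Psmc2, Fabp5 and Slc16a3. With the library size alone 13 DAM genes were called higher and 2 lower, 11 and 2 of MHC class I, 9 and 2 of the chemokine list, and 1 and 4 of the actin list.

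Changes of sign touched 4 genes, none of them called. Trem2 was at 0.0034 in DESeq2, 0.0037 with RLE scaling, 0.0089 in cluster 1 cells, and between -0.029 and 0.037 with 1 mouse left out. In cluster 1 cells Syk was at 0.0076 and Csf1r at 0.010. Spp1 was at 0.055 without the 5% of cells with most UMIs, 0.54 in cluster 0 cells, 0.33 without cluster 2 cells, and between -2.05 and 1.13 with 1 mouse left out. In cluster 1 cells the log2 fold change was 3.08 for Axl, 3.58 for Ptgs2, 1.91 for Clec7a, 1.32 for Fabp5 and 0.48 for Zfp36, each over 1.5 times the value in all cells. Leaving out cluster 2, and a stricter removal of cells with markers of another type, were chosen after seeing the data. With 3 mice per group, exact tests of single values cannot go below p = 0.1.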

Other observations

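Genes with fewer than 10 UMIs in some of the 6 mice could not be named by rule, and those given here were chosen after their values were seen. Nek2, a mitotic kinase gene, had 0, 0 and 0 UMIs in the day 7 mice and 11, 3 and 5 UMIs in the ATV:RSV mice. Kif4, a chromosome-associated kinesin gene, had 4, 0 and 2 UMIs against 21, 10 and 17, and Fam83d, a spindle gene, had 0, 0 and 0 against 4, 4 and 4. These 3 genes were called lower by limma-voom, with adjusted p of 0.0102 for Nek2, 0.0227 for Kif4 and 0.00651 for Fam83d. No member of the cell cycle list was called. At day 1 of ATV:4D9 the 3 genes were higher than in ATV:RSV, by log2 differences of 3.19, 3.67 and 2.14. The filter on low counts (minimum count 10) ran over all 15 mice. Nek2 and Fam83d had too few UMIs in the 6 mice compared to pass it on those alone. They entered the test through other groups, so their rise at day 1 is not separate from the filter. Their calls set 0 UMIs in every day 7 mouse against a few UMIs, and no conclusion is drawn from them.

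Cd69, an early activation receptor of immune cells, had 60, 58 and 119 UMIs at day 7 and 44, 9 and 12 in ATV:RSV. The complement gene Cfb had 36, 21 and 45 UMIs against 19, 6 and 3, and C3 had 47, 36 and 70 against 40, 11 and 6. In CPM, which accounts for library size, the 3 genes were higher in every day 7 mouse than in every control. That was so for 11.0% of all genes tested, and these 3 were chosen after their values were seen. For each of them ATV:RSV replicate 1 held the most UMIs of the controls.

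In cells thinned to 3385 UMIs, day 7 mice had a median of 1462 ± 11.9 genes (SD, n = 3) and ATV:RSV mice one of 1532 ± 4.93, a difference seen in 3 of 3 batches (exact permutation test, two-sided, p = 0.1, the lowest possible, adjusted over 10 measures 0.25). Ribosomal protein genes took a median of 16.9% ± 0.304 of the UMIs of a cell at day 7 and 12.4% ± 0.265 in ATV:RSV. Deposited cluster 2 held 2.12% to 3.23% of the cells of a day 7 mouse and 1.12% to 2.35% of those of a control.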
